A study of Citrus sinensis with 48 samples.

Results

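Galactinol synthase 1 (LOC102616851) and stachyose synthase (LOC102611645) are 2 of the 30136 genes in the deposited citrus leaf expression table. They were taken by gene symbol, both were found, and both passed the filter on low counts. They were chosen by their measured levels across these same 16 groups, so their levels, fold changes and order of groups are given here as a description with no test. Tests are given only for other genes of the same pathway, in edgeR's quasi-likelihood test with Benjamini-Hochberg adjustment over 23721 genes, called below an adjusted p of 0.05.

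Galactinol synthase joins galactose from UDP-galactose to myo-inositol and makes galactinol, the galactose donor of the raffinose family of sugars. Raffinose synthase, named galactinol-sucrose galactosyltransferase in the table, passes that galactose to sucrose, and stachyose synthase passes a further galactose from galactinol to raffinose. Alpha-galactosidases remove those galactose units again. In leaves these sugars are known as compatible solutes that accumulate in drought and heat, and in some plants also as sugars moved in the phloem. In Arabidopsis, different galactinol synthase genes are known to respond to heat and to drought.

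The libraries came from leaves of Carrizo citrange (Car), a hybrid of Poncirus trifoliata and Citrus sinensis, and of Cleopatra mandarin (Cleo, Citrus reshni). Both are used as citrus rootstocks. Each genotype was sampled under control conditions (CT) and in 7 stresses: water stress alone (WS), high light alone (HL), heat alone (HS), each pair of these (WS+HL, then HL+HS, then WS+HS) and all 3 at once (WS+HL+HS). Each of the 16 groups held 3 biological replicates, 48 libraries in all. Duration, light intensity, temperature, plant age and whether a replicate was 1 plant or a pool are not stated in the labels. Spreads and p-values therefore measure only the variation between these samples.

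The libraries held 40294831 to 58392998 counts, and 21139 to 23087 genes were detected in each. All 20 leaf marker genes (chlorophyll a-b binding proteins, Rubisco small subunits and Rubisco activase) were detected. Their summed level ran from 7260 to 64610 CPM, with every group under water stress, and HL+HS-Cleo, below CT of its genotype. The 21 vascular markers summed to 108.9 to 589.9 CPM, lowest in Car under WS+HL+HS. Of 13 seed storage markers, 2 were at 0 throughout, a legumin B-like gene and vicilin-like antimicrobial peptides 2-1. The rest summed to 41.6 to 158.8 CPM, and the mean of every stressed group was above CT of its genotype. Means ran from 50.8 (HS-Car) to 99.0 CPM (HL+HS-Cleo) without water stress. With it they ran from 108 (WS+HL-Car) to 152 CPM (WS+HL+HS-Cleo). The vicilin-like gene LOC102620193 alone held 68.9 CPM on average over all libraries. In a leaf sample, fewer cells of a type and less RNA per cell cannot be told apart. The part of these marker shifts in the results below was not tested. The column names of 11 libraries carry an unexplained mark, all 3 of HS-Car and 2 of CT-Car among them. Without them the members' log2 fold changes against CT moved by at most 0.57, and no value for HS-Car could be had.

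Galactinol synthase 1 was nearly silent in unstressed leaves and stood highest under high light with heat. Values are CPM after TMM scaling, in replicate order. In CT-Car they were 0.351, 0.297 and 0.138, and in CT-Cleo 0.146, 0.544 and 0.343, which are 8 to 29 counts a library. Under HL the libraries held 55.4, 49.9 and 46.6 in Car and 25.3, 22.9 and 26.4 in Cleo. Both groups stood far above their controls, with a log2 fold change of 7.60 ± 0.25 (SE) in Car and 6.17 ± 0.25 in Cleo. Under HL+HS they held 526, 544 and 516 in Car and 324, 345 and 392 in Cleo. That is a log2 fold change of 10.98 ± 0.26 and 10.003 ± 0.25, 2025-fold and 1026-fold, on a control level close to 0.

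Heat alone gave a smaller difference. HS-Car libraries held 4.30, 5.48 and 3.61 CPM, a log2 fold change of 4.10 ± 0.30, and HS-Cleo libraries 1.43, 1.45 and 1.35, a log2 fold change of 2.04 ± 0.34. Neither group overlapped its control. Under water stress alone the libraries held 0.656, 0.868 and 1.39 CPM in Car (log2 fold change 1.88 ± 0.39). In Cleo they held 0.382, 0.302 and 0.649 CPM, which overlapped the control (0.39 ± 0.44).

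Where water stress joined high light, the levels of galactinol synthase 1 lay far below those under the same stresses without it. Under WS+HL the libraries held 6.52, 6.28 and 4.63 CPM in Car (log2 fold change against CT 4.48 ± 0.29). In Cleo they held 0.529, 1.03 and 0.878 (1.26 ± 0.40), which overlapped the control in the lowest library. Under WS+HL+HS they held 59.7, 69.3 and 60.6 CPM in Car (7.92 ± 0.25) and 49.3, 59.1 and 42.0 in Cleo (7.18 ± 0.24). Under WS+HS they held 4.96, 3.77 and 3.40 CPM in Car (3.95 ± 0.30) and 2.18, 1.49 and 1.57 in Cleo (2.34 ± 0.33), close to HS alone.

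Stachyose synthase showed the other pattern: it was high in each of the 8 groups under water stress and low or intermediate in the rest. CT-Car libraries held 4.43, 3.09 and 5.56 CPM and CT-Cleo libraries 1.95, 1.60 and 2.44. Under WS they held 454, 498 and 448 in Car and 297, 324 and 283 in Cleo, with no overlap. The log2 fold change was 6.73 ± 0.18 in Car and 7.24 ± 0.19 in Cleo, 106-fold and 152-fold.

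In Car every combination with water stress held stachyose synthase below WS alone, while in Cleo WS+HS lay above WS alone and WS+HL below it. WS+HL libraries held 343, 388 and 388 CPM in Car and 237, 232 and 242 in Cleo (log2 fold change against CT 6.41 ± 0.18 and 6.90 ± 0.19). WS+HS libraries held 279, 274 and 272 CPM in Car (5.97 ± 0.18) and 482, 472 and 477 in Cleo (7.91 ± 0.20), the group with the highest mean. WS+HL+HS libraries held 314, 302 and 316 CPM in Car (6.15 ± 0.18) and 283, 212 and 162 in Cleo (6.79 ± 0.19). The last of these groups had the widest spread of the 8, with a coefficient of variation of 27.6%.

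Without water stress, stachyose synthase stood highest under HL+HS, with 37.3, 43.6 and 38.9 CPM in Car (log2 fold change 3.19 ± 0.16) and 95.7, 94.3 and 106 in Cleo (5.63 ± 0.18). HL alone gave 11.3, 9.55 and 9.77 CPM in Car (1.22 ± 0.16) and 7.75, 9.33 and 12.8 in Cleo (2.32 ± 0.19), above the controls in every library. HS alone gave 4.57, 4.06 and 3.27 CPM in Car, which overlapped CT (-0.14 ± 0.17), and 5.80, 6.29 and 5.82 in Cleo, above CT (1.59 ± 0.19).

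In all, the stressed libraries of galactinol synthase 1 lay above the controls with no overlap in 12 of 14 comparisons and those of stachyose synthase in 13 of 14. Calls were common in this experiment: 18.5% of all tested genes were called under HL in Car and 72.5% under WS+HL+HS in Cleo, the lowest and highest shares of the 14 comparisons. The members' choice used these contrasts, so nothing is read from their count. Calls are a different measure from overlap, and the share of all genes without overlap was not computed.

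**Figure D1:**
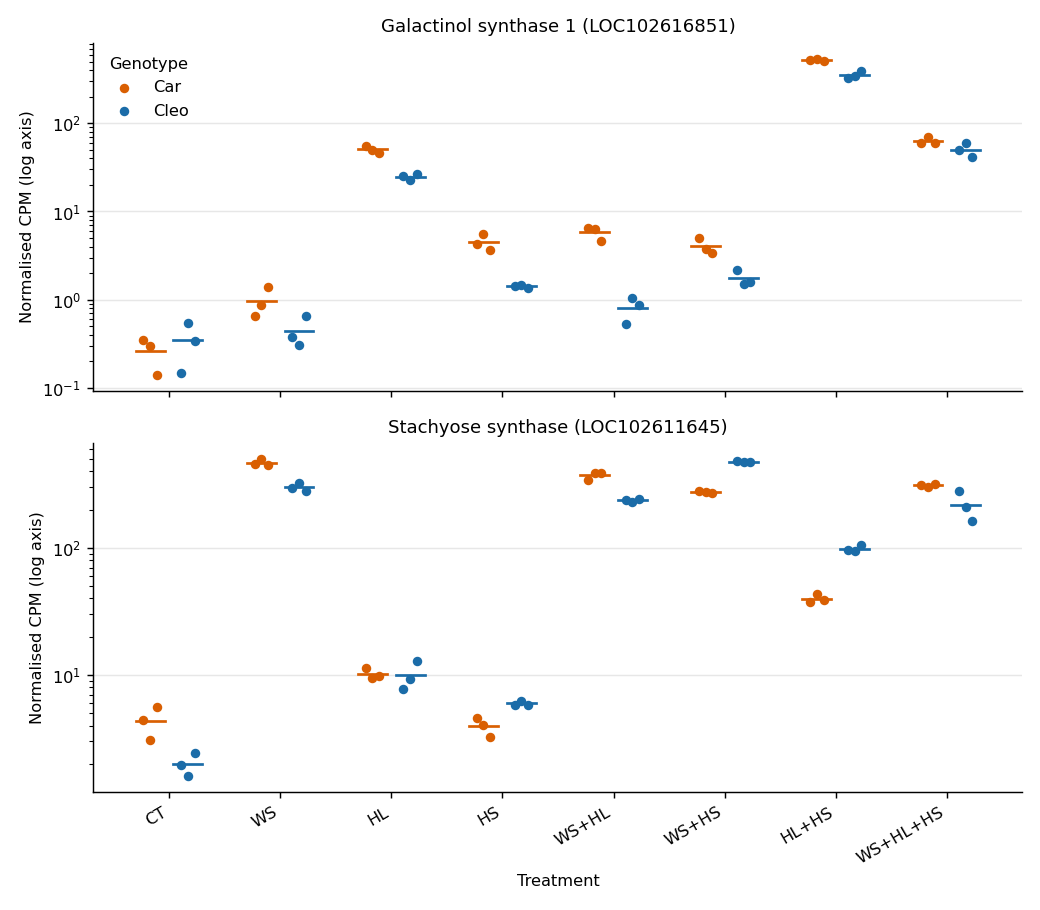
Level of galactinol synthase 1 (upper panel) and stachyose synthase (lower panel) in each library, as normalised CPM on a log axis, by treatment. Points are libraries, bars are group means (n = 3), orange is Car and blue is Cleo. Galactinol synthase 1 peaks under HL+HS near 529 CPM in Car and 354 CPM in Cleo, and stachyose synthase lies above 160 CPM in all 24 libraries under water stress.

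Ordered by mean level, galactinol synthase 1 ran from HL+HS-Car (529 ± 13.96 CPM, SD, n = 3) and HL+HS-Cleo (354 ± 34.6) to WS+HL+HS-Car (63.2 ± 5.27), HL-Car (50.7 ± 4.44) and WS+HL+HS-Cleo (50.1 ± 8.58). HL-Car and WS+HL+HS-Cleo overlapped. Next came HL-Cleo (24.9 ± 1.79), then WS+HL-Car (5.81 ± 1.03), HS-Car (4.47 ± 0.947) and WS+HS-Car (4.04 ± 0.816), with WS+HL-Car and HS-Car overlapping and HS-Car and WS+HS-Car overlapping. Below WS+HS-Cleo (1.75 ± 0.380) the groups HS-Cleo, WS-Car, WS+HL-Cleo, WS-Cleo, CT-Cleo and CT-Car each overlapped the next.

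For stachyose synthase the order began with WS+HS-Cleo (477 ± 4.99 CPM) and WS-Car (467 ± 27.5), which overlapped, followed by WS+HL-Car (373 ± 26.2). WS+HL+HS-Car (311 ± 7.35) and WS-Cleo (301 ± 20.9) overlapped each other, as did WS+HL-Cleo (237 ± 4.91) and WS+HL+HS-Cleo (219 ± 60.4), and WS+HS-Car (275 ± 3.82) stood between these pairs. HL+HS-Cleo (98.6 ± 6.21) and HL+HS-Car (40.0 ± 3.27) formed a middle level apart from the rest. HL-Car (10.2 ± 0.937) and HL-Cleo (9.97 ± 2.60) overlapped. HS-Cleo came next, then CT-Car and HS-Car, which overlapped, and CT-Cleo was lowest.

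Each stress was then compared with and without the others within a genotype, as the change when 1 stress is added to an existing condition. Adding water stress to HL took galactinol synthase 1 down 8.72-fold in Car (log2 difference -3.12 ± 0.17) and 30.2-fold in Cleo (-4.92 ± 0.23). Adding it to HL+HS took the gene down 8.36-fold in Car (-3.06 ± 0.15) and 7.06-fold in Cleo (-2.82 ± 0.15). None of these groups overlapped. Added to HS, water stress gave -0.15 ± 0.18 in Car, with overlap, and 0.30 ± 0.25 in Cleo.

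Added high light gave positive differences for galactinol synthase 1 in each setting. Added to HS it gave a log2 difference of 6.88 ± 0.19 in Car and 7.96 ± 0.21 in Cleo. Added to WS+HS it gave 3.97 ± 0.17 and 4.84 ± 0.19. Added to WS it gave 2.59 ± 0.23 in Car, and in Cleo 0.86 ± 0.38 with overlap. Heat added to HL gave 3.38 ± 0.16 in Car and 3.83 ± 0.16 in Cleo, and heat added to WS+HL gave 3.44 ± 0.17 and 5.93 ± 0.22.

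For stachyose synthase, added water stress gave positive differences in each setting. Added to HS it gave a log2 difference of 6.11 ± 0.18 in Car and 6.32 ± 0.18 in Cleo, and added to HL 5.19 ± 0.17 and 4.58 ± 0.16. Added to HL+HS, where the gene was already above CT, it gave 2.96 ± 0.15 and 1.15 ± 0.14. High light added to HS gave 3.33 ± 0.16 and 4.04 ± 0.16, and heat added to HL 1.97 ± 0.15 and 3.32 ± 0.16. Added to WS alone, heat gave -0.76 ± 0.14 in Car and 0.66 ± 0.14 in Cleo, and high light -0.32 ± 0.13 and -0.35 ± 0.14. Heat added to WS+HL gave -0.26 ± 0.13 in Car and -0.11 ± 0.14 in Cleo, the latter with overlap. High light added to WS+HS gave 0.18 ± 0.13 in Car and -1.12 ± 0.14 in Cleo.

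**Figure D2:**
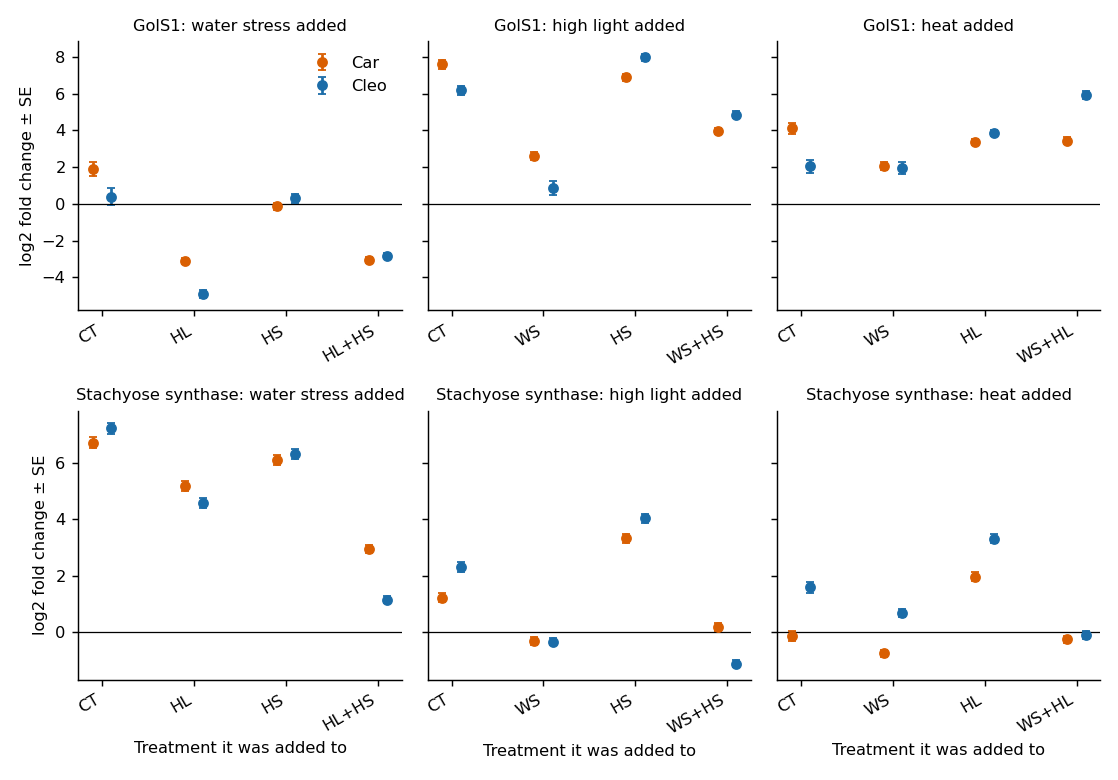
Log2 fold change (± SE) of galactinol synthase 1 (GolS1, upper row) and stachyose synthase (lower row) when 1 stress is added to the treatment named on the horizontal axis, in Car (orange) and Cleo (blue). Water stress added to HL lies at -3.12 and -4.92 for galactinol synthase 1 and at 5.19 and 4.58 for stachyose synthase.

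The departure of a combination from the sum of its single stresses on the log2 scale summarises the same values. For WS+HL, galactinol synthase 1 departed by -5.01 ± 0.41 in Car and -5.31 ± 0.54 in Cleo. For stachyose synthase the same departure was -1.54 ± 0.21 and -2.66 ± 0.23. For HL+HS, stachyose synthase departed upward in both genotypes (2.11 ± 0.23 in Car and 1.73 ± 0.25 in Cleo). Galactinol synthase 1 departed by -0.72 ± 0.39 in Car and 1.79 ± 0.44 in Cleo. For WS+HS the departures were -2.03 ± 0.43 and -0.09 ± 0.50 for galactinol synthase 1, and -0.62 ± 0.22 and -0.93 ± 0.23 for stachyose synthase. The triple combination departed by -5.66 ± 0.65 in Car and -1.42 ± 0.73 in Cleo for galactinol synthase 1, and by -1.66 ± 0.33 and -4.37 ± 0.37 for stachyose synthase. The Cleo value of galactinol synthase 1 rests on a control of few counts: it was -0.64 without the first CT-Cleo library and -2.48 without the second.

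Between the genotypes, galactinol synthase 1 overlapped under CT (log2 difference, Cleo minus Car, 0.40 ± 0.49). Under each of the 7 stresses the 3 Car libraries lay above the 3 Cleo libraries, as a ratio most widely under WS+HL (5.81 against 0.814 CPM) and least under WS+HL+HS (63.2 against 50.1 CPM). The log2 response was lower in Cleo in all 7 stresses, from -3.22 ± 0.57 (WS+HL) to -0.74 ± 0.51 (WS+HL+HS). These 7 differences share the same low controls.

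Stachyose synthase was 2.21-fold lower in CT-Cleo than in CT-Car, with no overlap, and its log2 response was larger in Cleo in all 7 stresses. The difference (Cleo minus Car) ran from 0.49 ± 0.24 under WS+HL to 2.45 ± 0.24 under HL+HS. All 7 differences share the same CT libraries. Without the 11 marked libraries, the gene's genotype differences, that under CT among them, moved by up to 0.39. In absolute level, Car stood above Cleo under WS, WS+HL and WS+HL+HS, and Cleo above Car under HS, WS+HS and HL+HS. Under HL the genotypes overlapped. Counts of both genotypes were made on the sweet orange annotation. The part of read matching in level differences between the genotypes, for either gene, was not tested.

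Across the 16 group means Pearson's r between the members was 0.116 and Spearman's rho 0.109 on log2 CPM (8 groups in each genotype, which share their libraries and controls). Per transcript length, in the authors' TPM, stachyose synthase exceeded galactinol synthase 1 by 249.8 ± 88.8 times in WS-Car and 367 ± 153 times in WS-Cleo (mean ± SD of the ratio in 3 libraries). Under HL+HS the order was turned, and galactinol synthase 1 exceeded stachyose synthase 28.3 ± 1.76 times in Car and 7.65 ± 0.366 times in Cleo. Under WS+HL+HS stachyose synthase held 2.32 ± 0.236 and 2.06 ± 0.545 times the TPM of galactinol synthase 1. By the gene order of DVS_A1.0, a different sweet orange assembly in RefSeq, the 2 genes lie on the same chromosome with 20 genes between them.

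The table holds 4 other galactinol synthases. The galactinol synthase 2-like gene LOC102608882 was highest under water stress. It rose under WS from 30.6 ± 9.29 to 1190.2 ± 68.5 CPM in Car (log2 fold change 5.28 ± 0.16, adjusted p = 4.99e-28) and from 31.7 ± 4.34 to 879 ± 58.4 in Cleo (4.79 ± 0.16, 3.76e-27). It was called higher in 13 of 14 stress comparisons and lower in HS-Car (-0.38 ± 0.14). LOC102628674, also galactinol synthase 2-like, rose under WS (3.32 ± 0.20 in Car, 1.29 ± 0.19 in Cleo) and fell under HS (-2.09 ± 0.21, -0.94 ± 0.20) and HL+HS (-0.98 ± 0.20, -1.02 ± 0.20).

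A further gene also described as galactinol synthase 1, LOC102619819, rose under WS (2.31 ± 0.14 in Car, 1.00 ± 0.13 in Cleo) and fell under HL+HS (-1.90 ± 0.15, -2.18 ± 0.15), where LOC102616851 was highest. The galactinol synthase 2-like gene LOC102609434 held almost no counts and was not tested. It lies next to LOC102628674 in the DVS_A1.0 gene table, and whether reads of such neighbours were split is not stated in the sources used.

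Summed over the 5 galactinol synthases, the deposited TPM was 97.8 ± 22.7 in CT-Car and 104 ± 20.1 in CT-Cleo, and within each genotype it was highest in WS-Car (1767 ± 119) and in WS+HS-Cleo (1137 ± 46.8). LOC102616851 made up 0.388% ± 0.216 (SD) of that sum in CT-Car and 0.363% ± 0.213 in CT-Cleo. It made up 41.0% ± 4.85 under HL in Car and 19.0% ± 1.53 in Cleo, and 72.6% ± 0.729 and 56.0% ± 0.636 under HL+HS. Under WS+HL it made up 0.433% ± 0.105 and 0.103% ± 0.0306. In every group under water stress LOC102608882 was the main transcript, from 71.2% ± 1.11 (WS+HL-Car) to 90.7% ± 0.180 (WS+HS-Cleo) of the sum.

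**Figure D3:**
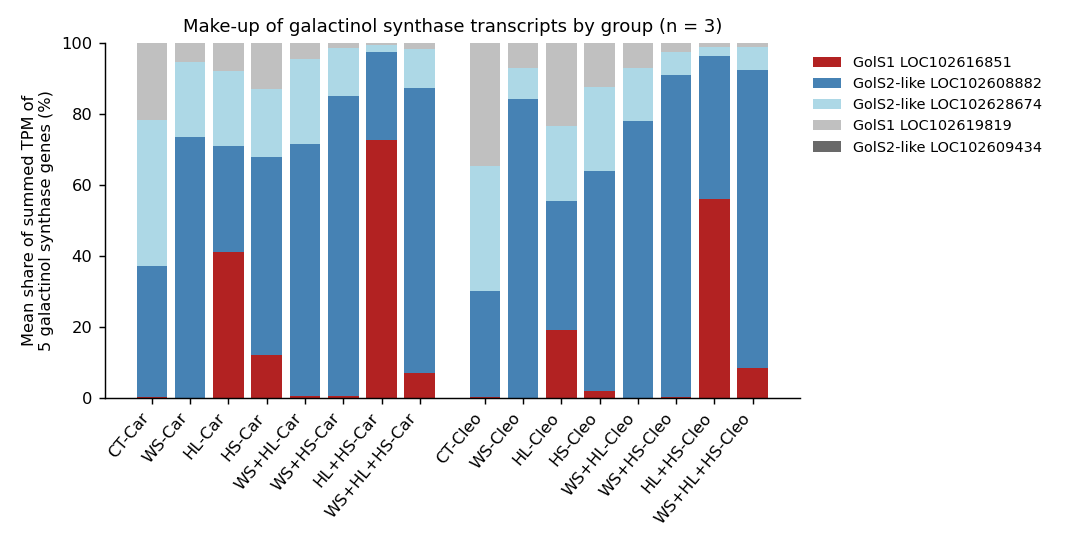
Mean share (%) of the summed TPM of the 5 galactinol synthase genes held by each gene, by group (n = 3). The gene LOC102616851 (dark red) reaches 72.6% in HL+HS-Car and 56.0% in HL+HS-Cleo and stays under 9% in every group under water stress, where LOC102608882 (blue) holds most of the sum.

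The other stachyose synthase, the stachyose synthase-like gene LOC102612410, stood at 0.252 ± 0.0905 CPM in CT-Car and from 0 to 0.169 CPM in the CT-Cleo libraries. Under WS it stood at 203 ± 7.17 CPM in Car and 111 ± 10.1 in Cleo. It rose in 12 of 14 comparisons. Its fitted log2 fold change under WS was 9.64 ± 0.26 in Car (adjusted p = 4.9e-29) and 10.84 ± 0.31 in Cleo (2.51e-28), a size that depends on the near absence of counts in CT. LOC102611645 was the main transcript throughout, with at least 69.7% ± 0.502 of the summed TPM of the pair (WS-Car).

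Raffinose synthases with a number in their name are described as probable. Of 7 raffinose synthases, 3 rose in all 8 comparisons under water stress: LOC102620630 (raffinose synthase 6), LOC102622912 (raffinose synthase 2) and LOC102625978 (raffinose synthase 5). Under WS their log2 fold changes were 3.00 ± 0.07, 1.68 ± 0.07 and 4.46 ± 0.16 in Car, and 2.79 ± 0.07, 2.83 ± 0.07 and 3.81 ± 0.15 in Cleo. In Cleo under WS they stood at 1070.3, 1716 and 1403 CPM, and each was called in both genotypes (adjusted p of 5.22e-23 or lower). Across the 8 comparisons, 28.8% (WS+HL-Car) to 37.5% (WS+HL+HS-Cleo) of all tested genes were called higher. The share called higher in all 8 was not computed.

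Another raffinose synthase was highest under HL+HS, as galactinol synthase 1 was. LOC102612163 (raffinose synthase-like) rose under HL (2.14 ± 0.20 in Car, adjusted p = 4.27e-11, and 2.90 ± 0.21 in Cleo, 4.45e-15) and HL+HS (4.15 ± 0.21 and 3.51 ± 0.21), and fell under WS (-2.82 ± 0.28 and -1.21 ± 0.24) and WS+HL (-1.73 ± 0.25 and -1.35 ± 0.26). Its level was low, 23.9 ± 1.18 CPM at the most (HL+HS-Car). LOC102607241 (raffinose synthase 2) had 0 counts in all CT-Cleo libraries and held 4.58 ± 0.727 CPM in HL+HS-Cleo. LOC102619084 (raffinose synthase 2) fell in 7 of 14 comparisons and rose in none.

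LOC102630645 (raffinose synthase 1) was called in opposite directions in the genotypes under HS, WS+HL and WS+HL+HS. Under HS it rose in Car (log2 fold change 1.07 ± 0.13) and fell in Cleo (-0.51 ± 0.14). Under WS+HL it fell in Car (-3.08 ± 0.15) and rose in Cleo (1.20 ± 0.14). Under WS+HL+HS it fell in Car from 36.0 to 4.27 CPM (log2 fold change -3.08 ± 0.15, adjusted p = 6.17e-21) and rose in Cleo from 10.8 to 202 CPM (4.23 ± 0.15, 6.02e-26). The difference, 7.31 ± 0.21, had an adjusted p of 2.9e-27.

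Among 10 alpha-galactosidases, 9 were tested and directions were mixed. LOC102611728 (alpha-galactosidase 1-like) fell under WS (-0.33 ± 0.07 in Car, -0.46 ± 0.07 in Cleo) and rose under HL+HS (1.88 ± 0.07 and 1.02 ± 0.07) and WS+HL+HS (1.83 ± 0.07 and 1.02 ± 0.07). The alpha-galactosidase B genes LOC102615368 and LOC102619323 rose under WS (1.75 ± 0.06 and 1.78 ± 0.07 in Car, 0.70 ± 0.06 and 0.71 ± 0.07 in Cleo). Their group means were close in Car, and in Cleo LOC102619323 was the higher in every group. How reads that could match both were assigned is not stated in the sources used.

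LOC102620382 (alpha-galactosidase 3) fell under WS in both genotypes (-0.80 ± 0.12, -1.44 ± 0.12) and rose under HS in Car (0.95 ± 0.11). In Cleo its value under HS was -0.06 ± 0.12, and the Cleo minus Car difference was -1.01 ± 0.16 (adjusted p = 2.01e-06). LOC102611429 (alpha-galactosidase 1-like) rose under HS in Car (2.50 ± 0.26). LOC102629675 fell under WS in both genotypes (-1.77 ± 0.26 in Car, -0.92 ± 0.28 in Cleo). LOC102619231, LOC102625116 and LOC112495661 stood under 2 CPM in every group mean, and LOC102623310 was not tested. Summed over the family, the TPM ran from 65.9 ± 1.90 (WS+HL-Cleo) to 191.3 ± 7.22 (HS-Car).

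**Figure D4:**
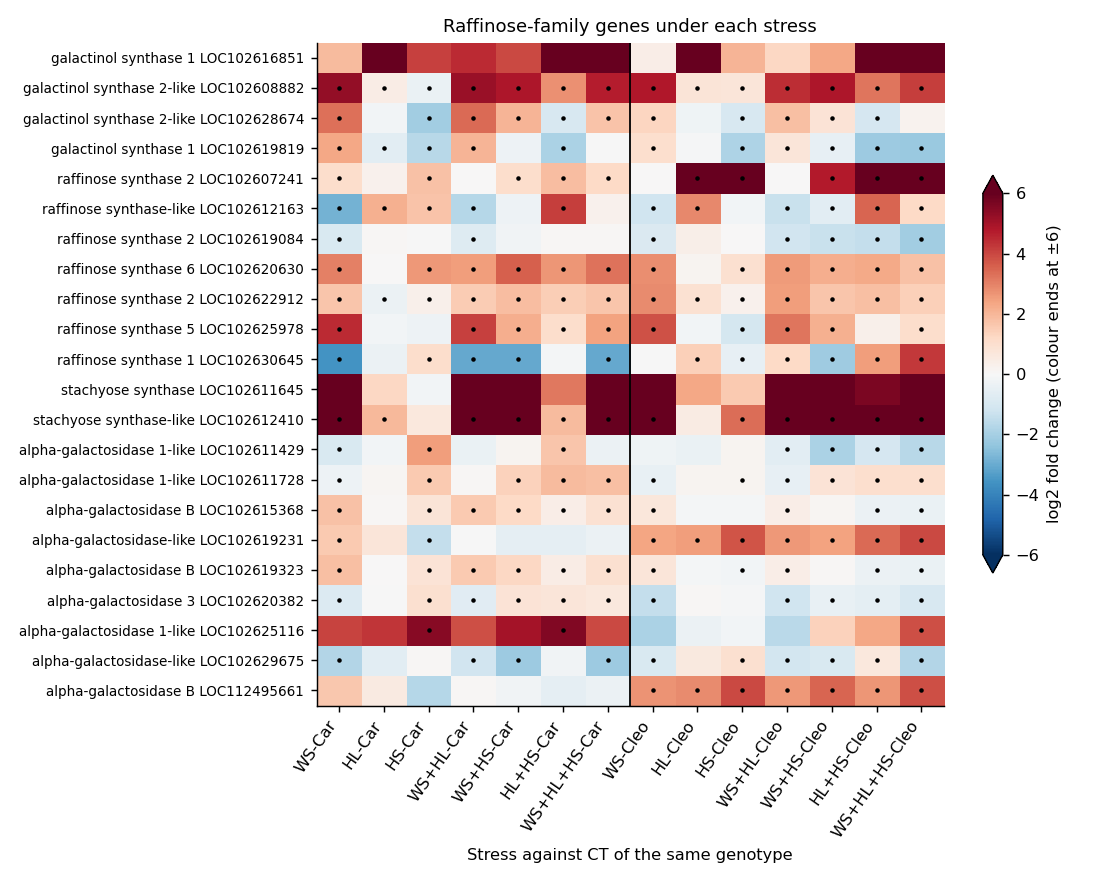
Log2 fold change against CT of the same genotype (colour, ends at ± 6) for the galactinol, raffinose and stachyose synthases and alpha-galactosidases, in the 7 stresses of Car (left) and Cleo (right). Dots mark genes called at an adjusted p below 0.05. The 2 genes the report is about carry no test and no dots, and LOC102609434 and LOC102623310, which were not tested, are not drawn. The synthases called under WS are mostly red, and the galactinol synthases other than LOC102616851 and LOC102608882 turn blue under HS and HL+HS.

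Over all 66 other genes of the pathway, which also supply or use inositol, UDP-galactose and sucrose, 63 were tested, and each count is given with the share of all tested genes called. Under WS, 35 genes rose and 15 fell in Car (79.4% called, against 64.9% of all genes, 29.5% higher). In Cleo 33 rose and 17 fell (79.4% called, against 64.7% of all genes, 31.2% higher). Under WS+HL, 33 genes rose and 12 fell in Car (71.4% called, against 62.1% of all genes, 28.8% higher). In Cleo 32 rose and 18 fell (79.4% called, against 64.9% of all genes, 31.2% higher). Under WS+HS, 35 genes rose and 12 fell in Car (74.6% called, against 66.9% of all genes, 31.9% higher). In Cleo 33 rose and 20 fell (84.1% called, against 64.3% of all genes, 32.2% higher). In each of these 6 comparisons more pathway genes rose than fell.

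More rose than fell, too, in both genotypes under the triple stress. Under WS+HL+HS, 34 genes rose and 11 fell in Car (71.4% called, against 71.2% of all genes, 32.5% higher). In Cleo 31 rose and 25 fell (88.9% called, against 72.5% of all genes, 37.5% higher). In Car that share was at the background. Under HL+HS, 28 genes rose and 15 fell in Car (68.3% called, against 60.9% of all genes, 29.5% higher). In Cleo 26 rose and 25 fell (81.0% called, against 67.1% of all genes, 35.5% higher). Under HS, 23 genes rose and 19 fell in Car (66.7% called, against 58.6% of all genes, 32.3% higher). In Cleo 22 rose and 28 fell (79.4% called, against 54.5% of all genes, 27.1% higher).

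High light alone gave the fewest calls. Under HL, 7 genes rose and 13 fell in Car (31.7% called, against 18.5% of all genes, 9.69% higher). In Cleo 15 rose and 11 fell (41.3% called, against 35.7% of all genes, 17.7% higher). The HL-Car count depended on the libraries fitted. Without the second HL-Car library 13 genes were called in place of 20. A fit of the CT-Car and HL-Car libraries alone called 3, and 1118 of all genes in place of 4379. Leaving out 1 library gave 3142 to 5791 of all genes. The background moved as well, so no excess is read from the HL-Car count.

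The median log2 fold change of the list was 0.66 in Car and 0.45 in Cleo under WS, beside -0.08 and 0 over all tested genes. Under HL it was -0.06 in Car and 0.04 in Cleo, beside 0 in both. The response differed between the genotypes (called Cleo minus Car difference) for 36 pathway genes under WS (57.1%, against 36.1% of all tested genes), 17 under HL (27.0% against 15.4%), 46 under HS (73.0% against 43.7%), 35 under WS+HL (55.6% against 40.0%), 37 under WS+HS (58.7% against 41.7%), 42 under HL+HS (66.7% against 50.1%) and 51 under WS+HL+HS (81.0% against 56.4%). The HL count was 11 without the second HL-Car library and 10 without the third. Calls over all tested genes moved too, from 2910 to 5268 with 1 library left out, against 3659 in the full fit. Between the genotypes under CT, 31 pathway genes were higher and 18 lower in Cleo than in Car (77.8% called, against 67.4% of all tested genes, 33.0% higher). The part of read matching to the sweet orange annotation in these differences was not tested.

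Upstream of galactinol, 1 of 5 inositol supply genes was called under WS alone in each genotype, against 64.9% of all tested genes in Car and 64.7% in Cleo. The inositol-3-phosphate synthase LOC102629031, which makes the precursor of myo-inositol, fell under HS (-1.46 ± 0.08 in Car, -2.91 ± 0.08 in Cleo) and WS+HS (-2.20 ± 0.08 and -3.12 ± 0.08). The 3 inositol-3-phosphate synthase 1-like genes (LOC102620587, LOC102621223 and LOC102621899) rose under HS and WS+HS in both genotypes, by 1.02 to 1.14 under HS in Car and 1.04 to 1.15 in Cleo. Their counts were low, at most 68, 82 and 89 in a library, against up to 222402 for LOC102629031. Genes called higher made up 32.3% of all tested under HS in Car and 27.1% in Cleo, and 31.9% and 32.2% under WS+HS. Of the 5 genes, none rose and 1 fell under WS in Car, and 1 rose and none fell in Cleo. Inositol oxygenase, which draws myo-inositol away, was split: LOC102618589 rose under WS (4.23 ± 0.17 in Car, 4.34 ± 0.19 in Cleo), while LOC102618274 fell in Cleo from 763 ± 103 to 27.4 ± 5.85 CPM (-4.80 ± 0.11) and rose in Car (0.65 ± 0.09).

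For UDP-galactose, 6 of 9 supply genes rose and 1 fell under WS in Car, and 5 rose and 3 fell in Cleo, where 29.5% and 31.2% of all tested genes rose. UDP-glucose 4-epimerase GEPI48-like (LOC102607055), which interconverts UDP-glucose and UDP-galactose, rose by 3.40 ± 0.11 in Car and 3.57 ± 0.11 in Cleo. The bifunctional epimerase LOC102621116 stood at 144 ± 3.47 CPM in WS+HL+HS-Cleo against 0.284 ± 0.230 in CT-Cleo.

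Of 11 sucrose supply genes 5 rose and 4 fell under WS in Car, and 5 rose and 3 fell in Cleo, against the same shares of all tested genes. Of these 11, 6 are sucrose synthases, which can also cleave sucrose. Sucrose-phosphate synthase 4 (LOC102624502) rose by 1.68 ± 0.07 and 2.55 ± 0.07. Of 15 tested invertase genes, which split sucrose, 11 rose and 2 fell in Car and 10 rose and 5 fell in Cleo, with the mitochondrial alkaline/neutral invertase A gene LOC102630289 at 3.54 ± 0.09 and 3.22 ± 0.08.

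Families of transcription factors known from Arabidopsis for heat, drought and abscisic acid responses were counted only. Of 8 class A heat stress factors, 5 rose and 2 fell under HL in Car and 4 and 2 in Cleo, 6 and 2 under HL+HS in Car and 5 and 2 in Cleo, and 7 and 1 under WS in each genotype. Of 11 DREB factors, 9 rose and none fell under WS in Car and 3 rose and 2 fell in Cleo. Of 7 factors like ABSCISIC ACID-INSENSITIVE 5, 4 rose and 2 fell under WS in Car and 5 and 1 in Cleo. Of all tested genes 29.5% rose under WS in Car and 31.2% in Cleo, 9.69% and 17.7% under HL, and 29.5% and 35.5% under HL+HS. Under HS, 32.3% and 27.1% of all tested genes rose. Those called in either direction were 64.9% and 64.7% under WS, 18.5% and 35.7% under HL, and 60.9% and 67.1% under HL+HS. Under HS they were 58.6% and 54.5%.

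The genes whose pattern over the 16 group means was most like that of each member were listed by Pearson's r of log2 CPM (prior count 2) among 10192 genes of sufficient level. For galactinol synthase 1 all 8 carry descriptions of heat shock proteins, chaperones or a heat shock factor. A 17.3 kDa class I heat shock protein-like gene (LOC102620759) led with r = 0.960. It held 3653 ± 172 CPM in HL+HS-Car against 4.04 ± 1.45 in CT-Car. It was followed by the ClpB disaggregases LOC102609953, LOC102630870, LOC102620452 and LOC102622978, heat shock factor HSF24 (LOC102622704), heat shock 70 kDa protein 8 (LOC102624827) and luminal-binding protein 5 (LOC102609733), with r from 0.940 to 0.955.

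For stachyose synthase the nearest was the galactinol synthase 2-like gene LOC102608882 (r = 0.989, rho = 0.962). The others had r from 0.955 to 0.964. They were the ninja-family protein AFP2 (LOC102613772) and the protein phosphatases 2C LOC102619858 and LOC102611031. Only some members of these families are known for abscisic acid signalling, and whether these genes act in it was not tested. The list went on with the mitochondrial ornithine aminotransferase (LOC102616929), dynamin-related protein 1E (LOC102612891), CTD small phosphatase-like protein 2 (LOC102629071) and transcription factor SRM1 (LOC102626223).

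Among pathway genes, the stachyose synthase-like gene LOC102612410 had r = 0.969 with stachyose synthase, and the raffinose synthase-like gene LOC102612163 had r = 0.791 with galactinol synthase 1. These are descriptions of 16 means from shared libraries. By rank correlation 5 of the 8 genes like galactinol synthase 1 and 1 of the 8 like stachyose synthase were listed again.

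**Figure D5:**
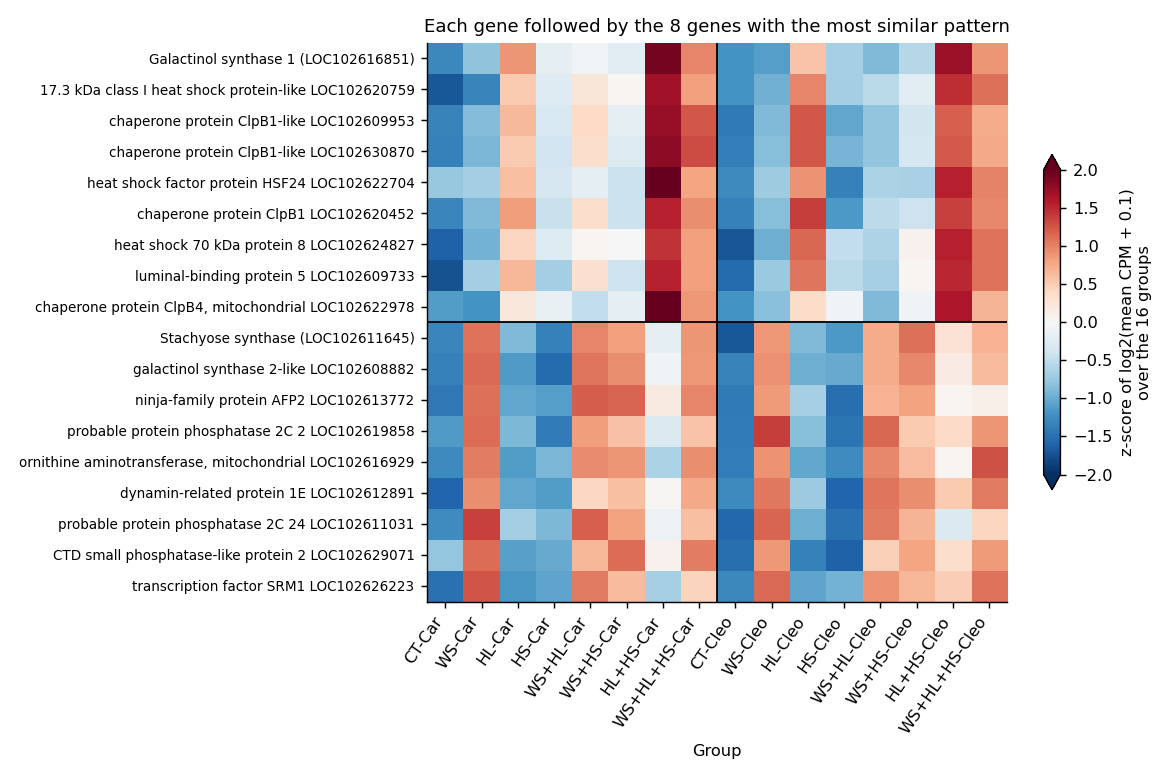
Level of each member and of its 8 most similar genes in the 16 groups, as a z-score of log2(mean CPM + 0.1) over the groups (colour). In the upper block the highest value of every gene is in HL+HS, in Car for all but heat shock 70 kDa protein 8, and in the lower block the highest values are in the groups under water stress, with HL+HS intermediate.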

How the data were processed

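Leaf RNA of 48 samples in 16 groups (2 genotypes, 8 treatments, 3 replicates) had been made into TruSeq stranded mRNA libraries, per the labels' protocols. The submitters' processing notes name FastQC 0.11.7, HISAT2 2.1.0 and StringTie 2.1.3b, and the deposited table uses the sweet orange RefSeq annotation. The deposited table gives a read count, an FPKM and a TPM per gene and library, per the file headers, and neither the strand setting nor whether the deposited count came from StringTie coverage is stated in the labels. Totals were 40294831 to 58392998 counts a library, which limit the precision only for genes near 0.

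Counts were fitted with edgeR 4.0.16 in R 4.3.3 (filterByExpr, TMM scaling, 16 group means, robust quasi-likelihood, 32 residual degrees of freedom), with Benjamini-Hochberg adjustment over 23721 genes and calls at an adjusted p below 0.05. Standard errors were calculated back from the test statistic. CPM are counts divided by the TMM-scaled library size. The deposited TPM served only for levels between genes. Alternatives were DESeq2 1.42.0, DESeq2 size factors, no filter, a replicate block, fits of the compared libraries only, deposited FPKM and TPM ratios, and each replicate or the 11 marked libraries left out; leave-one-out fits kept the dispersion trend of the full fit.

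The 2 genes and the gene lists were chosen with earlier results of these data known. Lists were picked by words in the gene descriptions. All galactinol, raffinose and stachyose synthases and alpha-galactosidases were to be named, and of other lists up to 3 genes with the lowest p. No 2 libraries of a group agreed within counting noise. Gene order came from the RefSeq table of DVS_A1.0, where 23878 gene IDs matched, and no coordinates were used.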

Additional observations from a re-analysis of the deposited data

Results flagged for a closer look

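The response to stress differed between the genotypes, by the test of the difference itself (edgeR, Benjamini-Hochberg adjustment), for some of the other pathway genes. Of 63 tested, the called genes numbered 36 under WS, 17 under HL, 46 under HS, 35 under WS+HL, 37 under WS+HS, 42 under HL+HS and 51 under WS+HL+HS. In the same order these were 57.1%, 27.0%, 73.0%, 55.6%, 58.7%, 66.7% and 81.0% of those tested, against 36.1%, 15.4%, 43.7%, 40.0%, 41.7%, 50.1% and 56.4% of all tested genes. The 7 counts share the same CT libraries.

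Responses called in opposite directions in the genotypes were counted among the galactinol, raffinose and stachyose synthases and alpha-galactosidases. The same count was not made over all tested genes, so nothing is read from its size. There were 15 such responses in 8 genes. The widest was raffinose synthase 1 (LOC102630645), whose log2 fold change differed, Cleo minus Car, by 7.31 under WS+HL+HS, by 4.28 under WS+HL and by -1.58 under HS. The galactinol synthase 2-like gene LOC102608882 fell in Car and rose in Cleo under HS (difference 1.08), and raffinose synthase 2 (LOC102622912) did so under HL (1.25).

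The other opposite responses were in alpha-galactosidases. LOC102619231, at under 2 CPM in every group mean, differed by 5.20 under HS. The rest rose in Car and fell in Cleo. LOC102611429 differed by -2.66 under HL+HS. LOC102620382 differed by -1.26 under WS+HS, -1.32 under HL+HS and -1.60 under WS+HL+HS. LOC102615368 and LOC102619323 differed by -0.77 and -0.80 under HL+HS and by -1.31 and -1.38 under WS+HL+HS, and LOC102619323 also by -0.97 under HS.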

How the results depend on the processing

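The 2 genes' fold changes, genotype differences and departures moved by at most 0.09 on the log2 scale under DESeq2, DESeq2 size factors, no filter and fits of the compared libraries only. Without the 11 marked libraries, stachyose synthase in Car had log2 fold changes of 7.24 under WS, 6.98 under WS+HL, 6.47 under WS+HS, 3.69 under HL+HS and 6.66 under WS+HL+HS. Ratios of deposited TPM moved fold changes by at most 0.32. Leaving out 1 replicate moved departures by at most 1.06, since the controls of galactinol synthase 1 hold few counts. With DESeq2 size factors, stachyose synthase stood at 457 CPM in WS+HS-Cleo.

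Counts of called genes moved most under HL. With the compared libraries only, 3 pathway genes and 1118 of all genes were called in HL-Car, and 7 and 1790 in the HL difference between genotypes; the cause was not tested. Leaving out 1 replicate gave 13 to 27 and 10 to 23 pathway genes, and 3142 to 5791 and 2910 to 5268 of all genes. Of the 8 genes most like galactinol synthase 1, 5, 3 and 1 were listed again by Spearman's rho, in Car alone and in Cleo alone, and of those like stachyose synthase 1, 3 and 1.

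Replicate numbers showed no strong shared effect. Correlations of same-numbered libraries ran from -0.160 to 0.148, and none of 14 comparisons had all 3 over 0.1. That check compared each stress with CT only, in groups of 3, and cannot show whether the samples were paired. With the replicate block the 2 genes' values moved by at most 0.02, and 22 pathway genes were called in HL-Car and 16 in the HL difference.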
